A study of Mus musculus with 5 samples.

Results

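The NeuroD genes and related members of the basic helix-loop-helix (bHLH) family of transcription factors were followed in RNA pulled down with tagged ribosomes from dentate gyrus and cerebral cortex of adult mice. The 10 genes were chosen by symbol, with earlier results of these data known. They were the activators Neurod1, Neurod2 and Neurod6 and the repressors Bhlhe22, Bhlhe40 and Bhlhe41. The others were the E proteins Tcf4 and Tcf12 and the inhibitors Id2 and Id4. All 10 were present among the 32531 genes listed in the files, and all 10 passed the filter on low counts that left 14136 genes to test. There were 3 dentate gyrus libraries and 2 cerebral cortex libraries. Every library came from untreated animals carrying both the Rbp4-Cre KL100 driver and a Rosa26 allele that makes an EGFP-tagged ribosomal protein, Rpl10a, wherever Cre has been active. Tagged polysomes were immunopurified with antibodies against EGFP (translating ribosome affinity purification, TRAP), so that RNA of Cre-expressing cells was enriched. The Cre driver therefore defines which cells are sampled, and the tagged cells of both tissues carry the same alleles. The labels do not give the sex, the exact age, or whether replicates came from separate or pooled animals, and the p-values reflect only how far these libraries spread, which may be technical. No unpurified input was analysed here.

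Proteins of the bHLH family bind DNA as dimers at E-boxes, short sites with the letters CANNTG. Tissue-restricted activators such as the NeuroD proteins usually pair with a widely expressed E protein such as Tcf4 or Tcf12. Id proteins lack the basic region that touches DNA and tie up E proteins in dimers that cannot bind. Bhlhe22, Bhlhe40 and Bhlhe41 are repressors, and Bhlhe40 and Bhlhe41, also called Dec1 and Dec2, feed back on the circadian clock through the E-box CACGTG. In the forebrain the NeuroD factors are known for driving the differentiation of glutamatergic neurons, and Neurod1 is needed for dentate granule cells to form.

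The DNA before the start sites of these genes is shown here because several encode proteins that act on E-boxes and because Neurod1 and Neurod2 differed in the same direction while Neurod6 differed in the other. RefSeq windows on GRCm38.p6 were used for 7 of the 10 genes, 9 windows in all. None were found for Bhlhe22 and Bhlhe40, and Tcf4 was left out. The 250 bases before each RefSeq start were searched for CANNTG, which reads the same class of sites on both strands. Distances below count from that start. Bases that GENCODE M21 places in the gene's first exon were left out of the printed sequences, so some of these end before that start. Capitals mark the CANNTG hexamers, and each sequence runs 5′ to 3′ on the minus strand, the strand of all 4 genes: Neurod1 at chr2:79456752-79456886, Neurod2 at chr11:98329649-98329895, Neurod6 at chr6:55681264-55681513 and Bhlhe41 at chr6:145865559-145865670.
Neurod1: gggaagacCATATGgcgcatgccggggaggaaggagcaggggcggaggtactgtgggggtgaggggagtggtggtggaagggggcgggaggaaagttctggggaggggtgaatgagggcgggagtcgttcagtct
Neurod2: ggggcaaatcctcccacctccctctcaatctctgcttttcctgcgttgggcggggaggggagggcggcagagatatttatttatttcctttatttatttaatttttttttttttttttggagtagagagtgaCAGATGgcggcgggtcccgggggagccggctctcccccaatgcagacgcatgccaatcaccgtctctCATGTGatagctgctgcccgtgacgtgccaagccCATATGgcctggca
Neurod6: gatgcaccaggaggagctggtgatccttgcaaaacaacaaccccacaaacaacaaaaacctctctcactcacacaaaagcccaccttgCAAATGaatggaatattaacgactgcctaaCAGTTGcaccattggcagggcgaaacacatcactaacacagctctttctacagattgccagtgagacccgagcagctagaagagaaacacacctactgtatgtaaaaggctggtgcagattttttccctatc
Bhlhe41: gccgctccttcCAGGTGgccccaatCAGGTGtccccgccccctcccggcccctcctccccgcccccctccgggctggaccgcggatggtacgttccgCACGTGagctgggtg

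The 250-base windows of Neurod1, Neurod2, Neurod6 and Bhlhe41 held 1, 3, 2 and 3 hexamers of the class CANNTG. Such a hexamer is common: 66.2% of all 32851 windows of the same length held at least 1, with a mean of 1.16 per window. The form CAGATG, or CATCTG on the other strand, which NeuroD dimers with E proteins are known to prefer, occurred in the Neurod2 window alone among the 7 genes, 118 bases before the start, and in 14.4% of all windows. The form CACGTG, the class of site that Bhlhe40 and Bhlhe41 themselves bind, occurred in the Bhlhe41 window alone, 153 bases before the start, and in 6.02% of all windows. The form CAGCTG was found before Id2 and before 1 of the 3 starts of Tcf12, and in 13.0% of all windows. No CANNTG hexamer lay in the Id4 window. These matches describe the letters in the windows and say nothing of binding.

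The labelled tissues were checked against markers before the genes were compared. The marker lists were chosen with earlier results of these data known, so this check is not independent of them. Gene counts summed to 22600963 to 36837908 per library. Each of the 8 markers of dentate granule cells was called higher in dentate gyrus, and their summed level was 3839 to 4307 CPM (gene counts scaled to a common library size of 1e+06) in dentate gyrus and 172.5 to 222.6 CPM in cortex. Fezf2, a gene of deep-layer cortical projection neurons, was at 1.82, 60.2 and 17.5 CPM in dentate gyrus replicates 1, 2 and 3, and at 353 and 283 CPM in cortex replicates 1 and 2. Not all deep-layer markers went that way: of 8 layer 5 markers tested, 6 were lower in dentate gyrus, Bcl11b was higher (log2 1.82, adjusted p 3.412e-05) and Rbp4, the gene of the driver, was not called. Of 6 layer 6 markers tested, 2 were lower, Tle4 was higher (log2 1.28, adjusted p 0.005106) and 3 were not called. A pair of libraries stood apart from their group. Dentate gyrus replicate 2 held Dcn, a fibroblast gene, at 114 CPM, while replicates 1 and 3 held 1.71 and 10.5 CPM. Col1a2, also a gene of fibroblasts, did not follow, at 0.110, 0.0444 and 0.783 CPM in dentate gyrus replicates 1, 2 and 3. Dlk1 did, at 0.110, 83.3 and 13.0 CPM, and the source of this RNA was not tested. Cortex replicate 1 held Car8 at 411 CPM, while cortex replicate 2 held 1.44 CPM. Cortex replicate 1 also held genes that are textbook markers of the cerebellum, chosen after their values were seen. Gabra6, Cbln3 and Pcp2 were at 4.33, 4.13 and 19.7 CPM there, and at 0, 0.123 and 0.123 CPM in cortex replicate 2. For Neurod1, Neurod6 and Id4, values without 1 or both of these libraries are given with the gene. Fits of all members without these libraries are summarised in the section on how the results depend on the processing.

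The question the design poses for these genes is which of them differ between the ribosome-bound RNA of the 2 tissues. Of the 10 genes, 6 were higher in dentate gyrus (Neurod1, Neurod2, Bhlhe22, Bhlhe41, Tcf4 and Tcf12), 3 were lower (Neurod6, Bhlhe40 and Id2) and Id4 was not called. The test was edgeR's quasi-likelihood test over all genes with Benjamini-Hochberg adjustment and a threshold of 0.05, and all adjusted p-values below come from it unless another is named. Over all 14136 tested genes, 21.3% were called, 10.5% as higher in dentate gyrus and 10.8% as lower. The CPM ranges of the tissues did not overlap for 9 of the 10 genes, and for 50.1% of all tested genes. Dentate gyrus lay above for 6 of the 10 and for 25.1% of all tested genes, and below for 3 of the 10 and for 25.0%. The median log2 fold change of the 10 genes, dentate gyrus over cortex, was 0.80, against 0.02 over all tested genes, and the median of its absolute value was 1.71, against 0.66. The 10 genes were chosen with earlier results of these data known, so these shares and medians describe them and do not test the set. RNA was measured in bulk, so fewer cells of a type and less RNA per cell cannot be told apart for any of these genes.

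**Figure D1:**
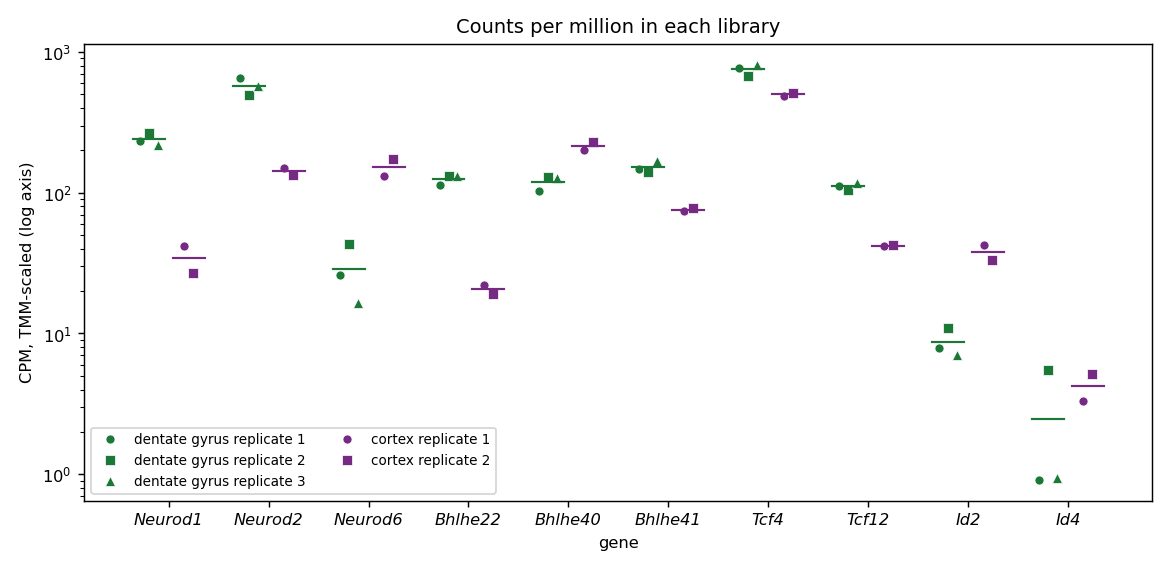
Level of each of the 10 genes in each library, in TMM-scaled CPM on a log axis, with dentate gyrus in green and cortex in purple, 1 point per library and a line at the group mean. The points of the tissues are separate for 9 genes, and overlap for Id4, where dentate gyrus replicate 2 lies at 5.50 CPM.

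The NeuroD activators split by gene. Neurod1, an activator of neuronal differentiation (chr2:79452521-79456751, minus strand), was at 234, 267 and 219 CPM in dentate gyrus replicates 1, 2 and 3, and at 41.9 and 27.0 CPM in cortex replicates 1 and 2. All 3 dentate gyrus libraries lay above both cortex libraries, and the cortex libraries differed from each other by more than the dentate gyrus libraries did in proportion. The mean was 240 ± 24.4 CPM in dentate gyrus (SD, n = 3) and 34.4 ± 10.5 CPM in cortex (SD, n = 2), a log2 fold change of 2.80 (SE 0.22, adjusted p 2.486e-05). The higher cortex value belonged to cortex replicate 1, the library with cerebellar markers, and Neurod1 is also a gene of cerebellar granule cells. Without cortex replicate 1 the log2 fold change was 3.16, and without cortex replicate 2 it was 2.49. The part of cerebellar cells in the Neurod1 values was not tested. GENCODE M21 places 201 exon bases of Cerkl on the same strand within exons of Neurod1. Gm26755 on the opposite strand shares 154 exon bases with Neurod1. Cerkl had 50, 122 and 26 counts in dentate gyrus and 3 and 4 counts in cortex. Neurod1 had 5604 to 8488 counts in dentate gyrus and 659 to 1469 in cortex. These counts do not show how reads over the shared bases were assigned.

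Neurod1 also marks newborn granule neurons, so the other markers of that stage were read beside it. Of 7 such markers, 5 passed the filter and Sox11, a transcription factor gene of immature neurons, was the only one called, at 86.6, 104 and 126 CPM in dentate gyrus and 43.3 and 21.0 CPM in cortex (log2 1.72, SE 0.32, adjusted p 0.003873). Dcx, a microtubule-associated protein gene of migrating neurons, was at 22.3, 12.8 and 12.7 CPM in dentate gyrus and 21.6 and 26.4 CPM in cortex. Eomes, a gene of intermediate progenitors, had 0 counts in all 5 libraries. Of the tested markers, Dcx, Sox4 and Calb2 had negative log2 fold changes of -0.59, -1.715 and -1.416, and Tubb2b a positive one of 1.033. None of these was called, and the median over the 5 tested markers was -0.59. The summed level of the 7 markers was 118.3 to 143.1 CPM in dentate gyrus and 57.2 to 76.3 CPM in cortex. Sox11 had the largest part of it in every library other than cortex replicate 2, where Dcx did. Their part in the Neurod1 difference was not tested.

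Neurod2, which promotes the maturation of glutamatergic neurons (chr11:98325415-98329648, minus strand), had the highest level of the NeuroD genes in dentate gyrus, in CPM and per kb. It was at 650, 494 and 572 CPM in dentate gyrus replicates 1, 2 and 3, and at 151 and 133 CPM in cortex replicates 1 and 2. Every dentate gyrus library exceeded both cortex libraries, with dentate gyrus replicate 2 the lowest of its group. The mean was 572 ± 78.3 CPM in dentate gyrus (SD, n = 3) and 142 ± 12.4 CPM in cortex (SD, n = 2), a log2 fold change of 2.01 (SE 0.15, adjusted p 2.005e-05), which is a 4.03-fold difference.

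Neurod6, a gene best known from differentiating pyramidal neurons (chr6:55677822-55681263, minus strand), differed in the opposite direction. It was at 26.1, 43.2 and 16.6 CPM in dentate gyrus replicates 1, 2 and 3, and at 131 and 173 CPM in cortex replicates 1 and 2. All dentate gyrus libraries were low, and the spread among them was wide for the level. The log2 fold change was -2.41 (SE 0.34, adjusted p 0.0008321), a 5.32-fold lower level in dentate gyrus. The highest dentate gyrus value came from replicate 2, the library that also held the most Fezf2 of its group. Between replicates 1 and 3 the order differed, with Neurod6 higher in replicate 1 and Fezf2 higher in replicate 3. Of 8 markers of cortical layer 5, 5 were highest in that library among the dentate gyrus libraries, and their summed level was 465.0, 580.9 and 445.1 CPM in dentate gyrus replicates 1, 2 and 3 and 1277 and 1179 CPM in cortex. Most of the dentate gyrus sum was Bcl11b, which is also expressed in granule cells and had a mean of 332 ± 33.5 CPM there (SD, n = 3) and 93.7 ± 8.96 CPM in cortex (SD, n = 2). Markers of hippocampal CA pyramidal cells summed to 328 to 418 CPM in dentate gyrus and to 433.1 to 453.2 CPM in cortex. The highest dentate gyrus sum was in replicate 2, but only 3 of the 9 markers were highest there among the dentate gyrus libraries. Most of the dentate gyrus sum was Cpne4, at 285, 307 and 266 CPM there and 147 and 179 CPM in cortex, a gene called higher in dentate gyrus (adjusted p 0.00347). Markers of mossy cells of the hilus summed to 82.8 to 109.6 CPM in dentate gyrus, also highest in replicate 2, and to 290.8 to 316.3 CPM in cortex, and nearly all of it was Ociad2. The part of such cells in the Neurod6 level of dentate gyrus was not tested. Without dentate gyrus replicate 2 the log2 fold change was -2.84, and with cortex replicate 1 left out as well it was -3.01 (adjusted p 0.001098).

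The balance of the NeuroD genes within a library does not depend on how libraries are scaled. To compare genes, CPM was divided by the merged exon length of each gene in GENCODE M21 (CPM per kb), which is 2729 bases for Neurod1, 3142 for Neurod2 and 2150 for Neurod6. Neurod6 made up 3.98%, 7.31% and 2.85% of the summed NeuroD level in dentate gyrus replicates 1, 2 and 3, and 49.1% and 60.6% in cortex replicates 1 and 2. Neurod2 made up 57.1% to 67.9% in dentate gyrus and 31.9% to 38.6% in cortex, and Neurod1 made up 28.1% to 35.6% in dentate gyrus and 7.46% to 12.3% in cortex. Thus Neurod2 led in dentate gyrus and Neurod6 led in cortex in every library. The summed level of the 3 genes was 270.1 to 304.9 CPM per kb in dentate gyrus and 124.3 to 132.6 CPM per kb in cortex. The ratio of Neurod2 to Neurod6 per kb was 17.1, 7.81 and 23.7 in dentate gyrus replicates 1, 2 and 3, and 0.785 and 0.526 in cortex replicates 1 and 2. The ratio of Neurod2 to Neurod1 moved less, at 1.61 to 2.41 in dentate gyrus and 3.12 to 4.28 in cortex. These shares follow from the same counts as the fold changes and are given as a description.

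**Figure D2:**
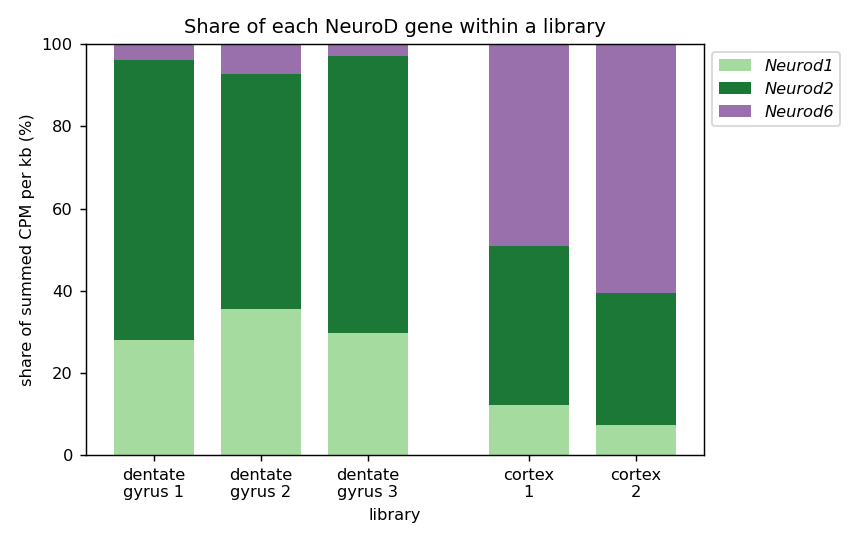
Share of Neurod1, Neurod2 and Neurod6 in their summed CPM per kb of merged exon in each library, in percent, with 3 dentate gyrus libraries on the left and 2 cortex libraries on the right. Neurod6 takes 2.85% to 7.31% in dentate gyrus and 49.1% to 60.6% in cortex.

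Among the repressors, Bhlhe22 differed most. This gene, a relative of the Olig genes that acts in cortical area identity and in axon outgrowth of projection neurons (chr3:18054174-18057517, plus strand), has a single exon in GENCODE M21. It was at 114, 132 and 131 CPM in dentate gyrus replicates 1, 2 and 3, and at 22.1 and 19.2 CPM in cortex replicates 1 and 2. Libraries of the same tissue lay close together and the tissues were far apart, with a log2 fold change of 2.61 (SE 0.20, adjusted p 2.305e-05). Prdm8, the corepressor that forms a complex with Bhlhe22, was higher in dentate gyrus as well. It was at 363, 334 and 395 CPM in dentate gyrus and 95.2 and 106 CPM in cortex (log2 1.85, SE 0.14, adjusted p 2.28e-05).

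The clock-related repressors Bhlhe40 and Bhlhe41 differed in opposite directions. Bhlhe40 (chr6:108660629-108666925, plus strand), which is also induced by neuronal activity, was at 103, 129 and 127 CPM in dentate gyrus replicates 1, 2 and 3, and at 200 and 230 CPM in cortex replicates 1 and 2. Bhlhe41 (chr6:145858243-145865558, minus strand) was at 147, 141 and 169 CPM in dentate gyrus and at 74.5 and 77.4 CPM in cortex. For both genes the tissues were separate in every library. The log2 fold change was -0.84 for Bhlhe40 (SE 0.16, adjusted p 0.004277) and 1.01 for Bhlhe41 (SE 0.17, adjusted p 0.002084). Per kb, the ratio of Bhlhe41 to Bhlhe40 was 0.996, 0.765 and 0.932 in dentate gyrus and 0.261 and 0.235 in cortex. Their sum was 43.8 to 52.2 CPM per kb in dentate gyrus and 53.6 to 60.5 CPM per kb in cortex, so the tissues differed less in the sum than in either gene. In GENCODE M21 the antisense gene 0610040F04Rik shares 118 exon bases with Bhlhe40, and Gm43909 on the opposite strand shares 1280 with Bhlhe41. The strand setting of the counting is not given in the sources used here, so reads of such pairs cannot be told apart. 0610040F04Rik had 6 to 40 counts in dentate gyrus and 38 to 97 in cortex. Bhlhe40 itself had 2914 to 3746 counts in dentate gyrus and 5617 to 7024 in cortex. Gm43909 was not among the counted genes, so no such values can be given for the overlap with Bhlhe41.

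Genes of the clock that are driven through E-boxes, on which Bhlhe40 and Bhlhe41 act, were read beside these repressors. Of 11 such genes tested, 2 were higher in dentate gyrus, 0 were lower and 9 were not called. Per3, a period gene, was at 59.1, 53.4 and 72.7 CPM in dentate gyrus and 19.1 and 27.3 CPM in cortex (log2 1.41, SE 0.27, adjusted p 0.004451). Hlf, a PAR bZIP transcription factor gene, was at 1283, 1397 and 1547 CPM in dentate gyrus and 733 and 725 CPM in cortex (log2 0.95, SE 0.11, adjusted p 0.0002214). The median log2 fold change of the 11 genes was -0.20, against 0.02 over all tested genes. The labels give no time of day of tissue collection, and a difference in it was not tested.

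Both E proteins were higher in dentate gyrus, Tcf12 by more than Tcf4. Tcf12 (chr9:71842688-72111871, minus strand) was at 111, 105 and 117 CPM in dentate gyrus replicates 1, 2 and 3, and at 41.9 and 42.3 CPM in cortex replicates 1 and 2. Tcf4, whose loss of a copy causes Pitt-Hopkins syndrome in humans (chr18:69343356-69689079, plus strand), was the most counted of the 10 genes, at 775, 675 and 811 CPM in dentate gyrus and 489 and 510 CPM in cortex. The cortex libraries agreed closely for both genes, and no dentate gyrus library fell into their range. The log2 fold change was 1.40 for Tcf12 (SE 0.18, adjusted p 0.0005153) and 0.59 for Tcf4 (SE 0.12, adjusted p 0.005508). The ratio of Tcf4 to Tcf12 per kb was 3.65 to 3.96 in dentate gyrus and 6.62 to 6.84 in cortex. Tcf3, the other E protein gene, was low, at 7.75, 2.13 and 1.96 CPM in dentate gyrus and 3.08 and 1.64 CPM in cortex, and was not called (adjusted p 0.6245).

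The inhibitor Id2 was low in dentate gyrus. Id2 (chr12:25093799-25097140, minus strand) was at 7.92, 11.0 and 7.04 CPM in dentate gyrus replicates 1, 2 and 3, and at 42.9 and 33.3 CPM in cortex replicates 1 and 2. The tissues were separate, and the log2 fold change was -2.14 (SE 0.33, adjusted p 0.001425), a 4.402-fold lower level in dentate gyrus. Id2 is known from some cortical interneurons as well as from pyramidal neurons. Of 13 tested markers of GABAergic interneurons, 6 were lower in dentate gyrus, 5 were not called and 2 were higher. The higher ones were Adarb2 and Gad1 (log2 0.94, adjusted p 0.02759 for Gad1). The 14 listed markers summed to 570.8 to 623.4 CPM in dentate gyrus and 1958 to 2083 CPM in cortex. Most of the sum in every library was Cck, at 298, 344 and 333 CPM in dentate gyrus and 1169 and 1044 CPM in cortex. Their part in the Id2 difference was not tested.

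Id4, an inhibitor known from neural progenitors and astrocytes (chr13:48261228-48266026, plus strand), had the lowest level of the 10 genes and was not called. It had 33, 124 and 24 counts in dentate gyrus replicates 1, 2 and 3, and 116 and 126 counts in cortex replicates 1 and 2, or 0.910, 5.50 and 0.939 CPM in dentate gyrus and 3.31 and 5.17 CPM in cortex. Dentate gyrus replicate 2 lay above both cortex libraries while the others lay below them. The log2 fold change was -0.79 (SE 0.95, adjusted p 0.6289). Without dentate gyrus replicate 2 the tissues no longer overlapped and the log2 fold change was -2.20, still with an adjusted p of 0.1577. Of 8 vascular and fibroblast markers, 5 were highest in that library among the dentate gyrus libraries. Their sum was 138.9 CPM there, 11.1 and 26.7 CPM in dentate gyrus replicates 1 and 3, and 50.96 to 55.3 CPM in cortex. Without Dcn the sum was 24.6 CPM in dentate gyrus replicate 2, against 9.38 and 16.2 CPM in the others. Of 12 astrocyte markers, 2 were highest in that library among the dentate gyrus libraries. The astrocyte sum ran from 980.3 to 1264 CPM in dentate gyrus and from 1265 to 1315 CPM in cortex, most of it Slc1a2. No astrocyte marker was at 0 in a whole tissue, and among the vascular markers Cldn5 was at 0 in both cortex libraries. The part of these cells in the Id4 values was not tested.

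Taking the E proteins and the inhibitors side by side, the summed level of Tcf4 and Tcf12 was 35.5, 31.4 and 37.2 CPM per kb in dentate gyrus replicates 1, 2 and 3, and 20.6 and 21.4 CPM per kb in cortex replicates 1 and 2. The summed level of Id2 and Id4 was 3.48, 5.95 and 3.13 CPM per kb in dentate gyrus and 18.4 and 15.0 CPM per kb in cortex. The ratio of these sums was 10.2, 5.28 and 11.9 in dentate gyrus and 1.12 and 1.42 in cortex. The ratio was therefore higher in each dentate gyrus library than in either cortex library, and lowest within dentate gyrus in replicate 2. These are RNA levels per merged exon length, and the ratio scales with the length taken for Tcf4 and Tcf12.

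**Figure D3:**
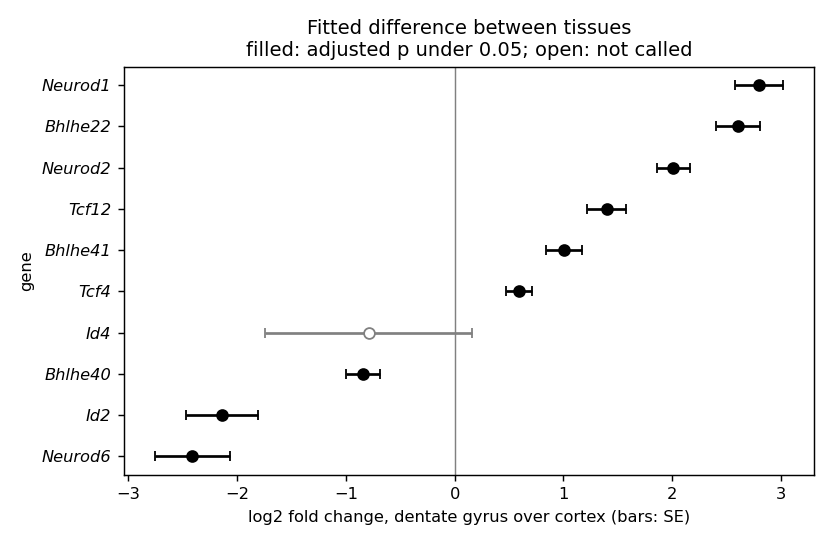
Fitted log2 fold change of each gene, dentate gyrus over cortex, with bars of 1 SE, for 3 dentate gyrus and 2 cortex libraries. Neurod1, Bhlhe22, Neurod2, Tcf12, Bhlhe41 and Tcf4 lie to the right, Bhlhe40, Id2 and Neurod6 lie to the left, and the open point for Id4 has an SE of 0.95.

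Ordered by CPM per kb, the 10 genes ranked differently in the tissues. In dentate gyrus Neurod2 led at 182 ± 24.9 CPM per kb, followed by Neurod1 at 88.0 ± 8.93, Bhlhe22 at 37.6 ± 3.10, Tcf4 at 27.5 ± 2.58, Bhlhe40 at 25.5 ± 3.06 and Bhlhe41 at 22.7 ± 2.20 CPM per kb (SD, n = 3). Tcf4 could not be separated from Bhlhe40, nor Bhlhe40 from Bhlhe41, because the ranges of these neighbours overlapped. Below them came Neurod6 at 13.3 ± 6.29, Tcf12 at 7.14 ± 0.399, Id2 at 3.55 ± 0.855 and Id4 at 0.637 ± 0.687 CPM per kb. In cortex Neurod6 led at 70.7 ± 13.7 CPM per kb, followed by Bhlhe40 at 45.7 ± 4.54 and Neurod2 at 45.1 ± 3.94 CPM per kb, which overlapped (SD, n = 2). Tcf4 at 18.2 ± 0.548 CPM per kb came next. Id2 at 15.6 ± 2.78 overlapped Neurod1 at 12.6 ± 3.85, and Neurod1 overlapped Bhlhe41 at 11.3 ± 0.310 CPM per kb. Bhlhe22 at 6.17 ± 0.632, Tcf12 at 2.71 ± 0.0191 and Id4 at 1.10 ± 0.342 CPM per kb were lowest in cortex. Several places depend on the length used. Per kb of merged exon Bhlhe22 ranked 3rd in dentate gyrus and 8th in cortex, and per kb of the longest coding transcript it ranked 5th in dentate gyrus and 9th in cortex. Neurod6 ranked 7th in dentate gyrus by merged exons and 8th by that transcript, and 1st in cortex by both, but by that transcript its range in cortex overlapped that of Bhlhe40, at 69.1 ± 6.86 CPM per kb (SD, n = 2). Tcf4 moved most in level: its merged exons span 27382 bases and its longest coding transcript 8577, and per kb of that transcript it reached 87.9 ± 8.25 CPM in dentate gyrus (SD, n = 3) and 58.2 ± 1.75 CPM in cortex (SD, n = 2).

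The wider bHLH family was read to set the members in context. Of 77 other bHLH genes listed, 53 passed the filter and 11 had 0 counts in every library. Among the 53, 5 were higher in dentate gyrus (9.43%), 11 were lower (20.8%) and 37 were not called, with a median log2 fold change of 0.06. Over all tested genes the shares were 10.5% and 10.8%. The count lower in dentate gyrus was 5 without cortex replicate 2 and 7 with a replicate block, and the total of 16 calls was 10 without cortex replicate 2.

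Among relatives of the proneural and Olig genes, 9 of 23 passed the filter, with 1 higher in dentate gyrus and 2 lower. Nhlh1, a bHLH gene of developing neurons, was at 37.2, 19.97 and 35.5 CPM in dentate gyrus and 0.342 and 0.328 CPM in cortex, with a log2 fold change of 6.51 (SE 0.52, adjusted p 2.707e-05), the largest rise among the bHLH genes called. The other calls rested on few counts. Olig2, a gene of the oligodendrocyte lineage, was at 0.469, 0.444 and 0.157 CPM in dentate gyrus and 2.54 and 6.27 CPM in cortex (adjusted p 0.03214, or 0.325 and 0.0607 when cortex replicate 2 or 1 was left out, and 0.0515 and 0.0707 when dentate gyrus replicate 2 or 3 was). Tal1 had 0 counts in dentate gyrus and 71 in cortex, at least 36.9-fold lower in dentate gyrus against a floor of 3 counts over that tissue, and its adjusted p of 0.02756 became 0.0908 and 0.241 without cortex replicates 1 and 2. The proneural genes Neurog1, Neurog3, Atoh1 and Atoh7 had 0 counts in all 5 libraries, and Neurog2 had 0 counts in dentate gyrus and 6 in cortex.

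Of the other partners of E proteins, 5 of 6 passed the filter. Cbfa2t3, a corepressor of the ETO family that binds E proteins, was at 182, 136 and 170 CPM in dentate gyrus and 77.1 and 59.2 CPM in cortex (log2 1.26, SE 0.20, adjusted p 0.001625). Its relative Runx1t1 was lower, at 9.90, 70.8 and 32.2 CPM in dentate gyrus and 196 and 187 CPM in cortex (log2 -2.35, SE 0.57, adjusted p 0.01591, or 0.0586 without cortex replicate 1 and 0.117 with robust dispersion). Within dentate gyrus Runx1t1 was highest in replicate 2 and lowest in replicate 1, as Fezf2 was. Id3 had 5, 0 and 1 counts in dentate gyrus and 105 and 86 in cortex, and its adjusted p of 0.01809 became 0.0884 and 0.111 without cortex replicates 1 and 2.

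Of 6 tested Hes and Hey genes, repressors that act downstream of Notch, 2 were lower in dentate gyrus and 0 higher. Hes5 was at 0.0276, 0 and 0.0391 CPM in dentate gyrus and 3.02 and 5.29 CPM in cortex (adjusted p 0.003588, or 0.0531 without cortex replicate 2). Heyl was at 0, 0.0444 and 0.0391 CPM in dentate gyrus and 1.65 and 9.23 CPM in cortex (adjusted p 0.00419, or 0.163 without cortex replicate 2). Hey1, the most counted gene of the group, was at 110, 131 and 127 CPM in dentate gyrus and 136 and 155 CPM in cortex, without a call (adjusted p 0.3215).

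The bHLH genes with PAS domains gave 5 lower and 2 higher calls among 16 tested. Arnt2, a general partner of this class, was at 83.6, 120 and 111 CPM in dentate gyrus and 283 and 308 CPM in cortex (log2 -1.49, SE 0.17, adjusted p 0.0002515). Npas2, a paralogue of Clock, was at 28.5, 41.7 and 28.1 CPM in dentate gyrus and 98.3 and 119 CPM in cortex (log2 -1.73, SE 0.24, adjusted p 0.0006851). Clock itself was at 248, 278 and 241 CPM in dentate gyrus and 236 and 254 CPM in cortex. The activity-induced factor Npas4 was at 0.359, 0.266 and 0.196 CPM in dentate gyrus and 9.38 and 8.77 CPM in cortex (adjusted p 0.00111). Sim1 had 0 counts in dentate gyrus and 368 in cortex. Outside the naming rule and chosen after their values were seen, Npas3 was the fifth lower gene, and its adjusted p of 0.03621 became 0.746 without cortex replicate 2, and 0.0724 and 0.0681 when dentate gyrus replicate 1 or 3 was left out. The coactivator genes Ncoa1 and Ncoa2 were the higher ones, with log2 fold changes of 0.68 and 0.59, and the adjusted p of Ncoa2 was 0.0658 without cortex replicate 1.

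Of 13 tested genes of the Myc and Max network, 2 were higher in dentate gyrus and 0 lower. Mycl, a neuronal member of the Myc family, was at 47.8, 38.8 and 48.4 CPM in dentate gyrus and 2.31 and 4.88 CPM in cortex (log2 3.66, SE 0.40, adjusted p 0.0001864). Max, the obligate partner of Myc proteins, was at 281, 266 and 269 CPM in dentate gyrus and 176 and 159 CPM in cortex (log2 0.70, SE 0.13, adjusted p 0.004285). Of 7 tested genes of the USF, MiT and SREBP group, Srebf2, the regulator of sterol synthesis, was lower, with a mean of 21.2 ± 1.02 CPM in dentate gyrus (SD, n = 3) and 52.3 ± 7.49 CPM in cortex (SD, n = 2; log2 -1.31, SE 0.24, adjusted p 0.004186), and 0 were higher.

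**Figure D4:**
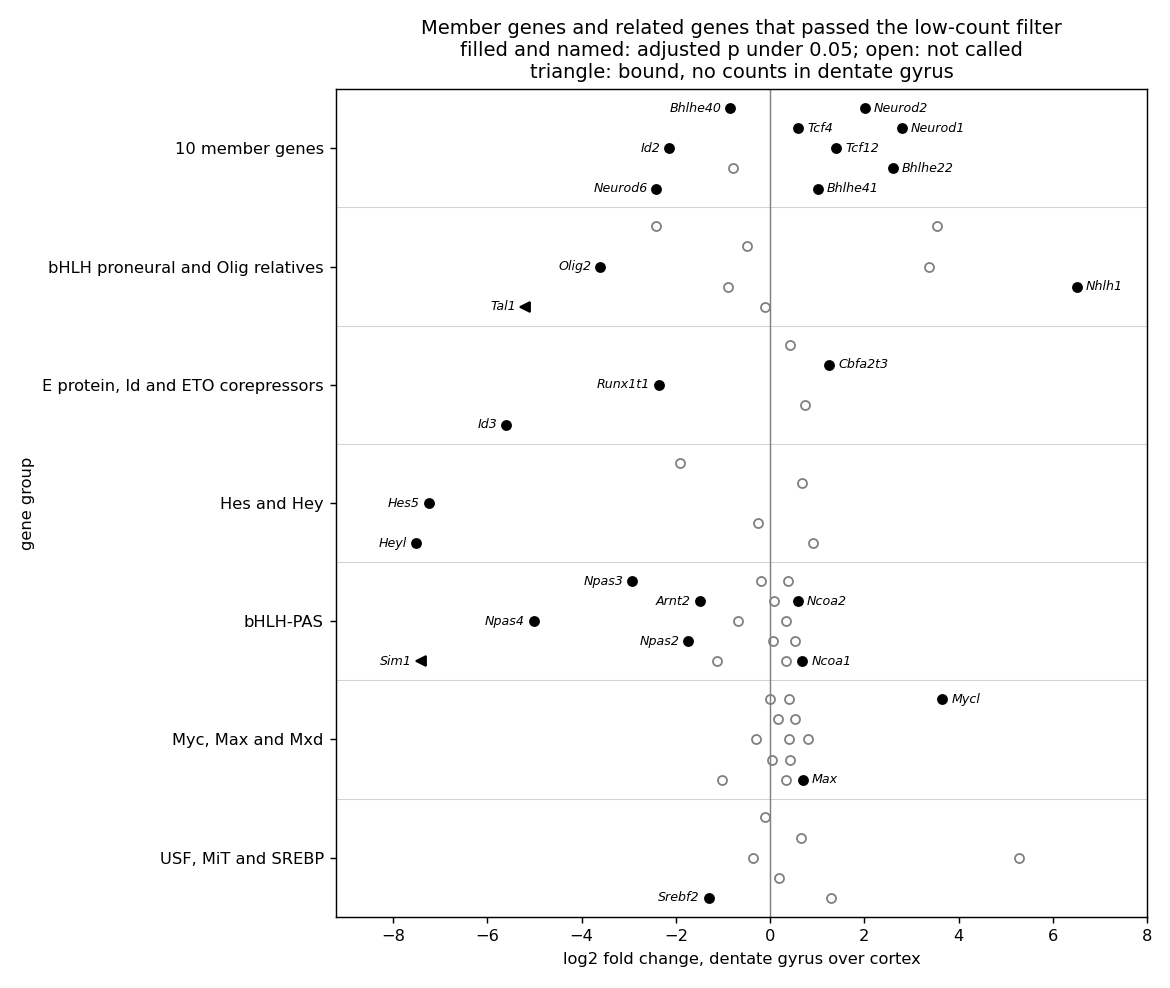
Fitted log2 fold change, dentate gyrus over cortex, of the 10 member genes and of related genes that passed the low-count filter, by group, 1 point per gene. Called genes are filled and named, triangles mark bounds for Sim1 and Tal1, which had no counts in dentate gyrus, and the fitted values of Hes5, Heyl and Id3 rest on 2, 2 and 6 counts there.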

How the data were processed

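Ribosome-bound RNA was sequenced from 3 dentate gyrus and 2 cerebral cortex libraries. The authors deposited raw read counts per gene symbol, 1 file per library, made with STAR 2.0.0e and HTSeq on mm10, per the submitters' processing notes. No HTSeq version, annotation or strand setting is stated in the labels or notes. Rows that name no gene, 40.2% to 44.6% of counted reads, entered neither the library sizes nor the tests. The 10 members and the gene lists were chosen with earlier results of these data known.

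Libraries were scaled by TMM and filtered with filterByExpr, and dentate gyrus minus cortex was tested with edgeR 4.0.16 in R 4.3.3 on tissue alone, with Benjamini-Hochberg adjustment over all tested genes. CPM uses TMM-scaled library sizes. The SE is the absolute log2 fold change divided by the square root of F. A count of 3 corresponds to 0.0814 to 0.133 CPM in a library and covers counting error only. Libraries of a tissue differed by more than counting noise (chi-square per degree of freedom 42.4 to 58.6). Named genes were the members, for each list the called genes of lowest adjusted p, at most 4, and genes with no counts in a tissue. Outside it, and chosen after their values were seen, Tcf3, Hey1, Clock, Neurod4, Npas3, Ncoa1, Ncoa2 and the single marker genes are named. Gene positions were read from GENCODE M21 (GRCm38, which is mm10), and promoter windows from RefSeq. DESeq2 1.42.0 and limma 3.58.1 (voom) were among the alternatives. The procedure was tested on simulated data.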

Additional observations from a re-analysis of the deposited data

How the results depend on the processing

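Under 15 alternatives, the 10 members gave 150 log2 fold changes, all in the same direction and on the same side of the threshold as reported, with 6 members higher and 3 lower each time. The alternatives were other scalings and filters, DESeq2, limma voom, robust dispersion, a replicate block, removal of each library, removal of both libraries that stood apart (cortex 1 with dentate gyrus 2), and removal of Rn45s. The closest calls were Tcf4 (adjusted p 0.0428 without cortex replicate 1) and Bhlhe40 (0.0358 without cortex replicate 2). Id4 ran from -2.47 to -0.42 and was never called. The count of members whose ranges do not overlap was 9 to 10.

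Of all genes, 1886 to 2775 were called when single libraries were left out, with 1906 when cortex replicate 1 was left out, 1886 when cortex replicate 2 was, and 1578 without both libraries that stood apart, against 3009. Fewer samples entered these fits. The related bHLH genes called ran from 10 to 17 without single libraries, those higher in dentate gyrus from 4 to 6 and those lower from 5 to 11. The calls of Olig2 and Npas3 also ended under voom (adjusted p 0.0515 and 0.134), those of Olig2, Tal1, Id3 and Npas3 under the block (0.169, 0.139, 0.0871 and 0.0559), and those of Olig2, Tal1, Id3, Ncoa1 and Ncoa2 without both libraries (0.0984, 0.153, 0.144, 0.0725 and 0.114). The count higher was 3 without both libraries together. The replicate block gave 2237 calls over all genes and 7 related genes lower. The labels do not say that replicate numbers pair the samples. Deviations of same-numbered libraries from their tissue mean correlated at 0 and -0.02 across genes. With 2 cortex libraries their deviations mirror each other, so these values cannot show whether samples were paired. The block changed no member's call. The cause of these changes was not tested. Id4 had 24 to 126 counts per library.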

Other observations

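A few bHLH genes were counted in few libraries, and are given as values. Hes3, Tal2 and Helt had 77, 20 and 14 counts in cortex replicate 1 and 0 counts in the other 4 libraries. Neurod4, a NeuroD gene outside the 10 followed, had 0, 22 and 0 counts in dentate gyrus replicates 1, 2 and 3, and 21 and 2 counts in cortex replicates 1 and 2.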
